A study of Rattus norvegicus with 10 samples.

Results

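The enzymes that remove superoxide and peroxides were examined as 10 genes chosen by name for their role: the superoxide dismutases Sod1, Sod2 and Sod3, catalase (Cat), the glutathione peroxidases Gpx1, Gpx3 and Gpx4, and the peroxiredoxins Prdx1, Prdx3 and Prdx6. They were 10 of the 13426 genes that could be named on the arrays. Liver RNA had been taken from 10 male Wistar rats, each on 1 array, 24 h after total-body irradiation (TBI) or from unirradiated rats. The control group held 3 rats at 0 Gy. The TBI group held 3 rats given 6.5 Gy from a 60Co source without MASM, and the MASM + TBI group held 4 rats that received MASM, a derivative of matrine, at 30 mg/kg/day by gavage for 3 days before the same dose. No rats given MASM alone were among the arrays, so the action of MASM without irradiation cannot be read from them. The liver is a mixture of cells, and in such a sample fewer cells of a type and less RNA per cell cannot be told apart.

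Ionizing radiation splits water into radicals, and cells meet the resulting superoxide and peroxides in steps. Superoxide dismutases turn superoxide into hydrogen peroxide, and catalase, glutathione peroxidases and peroxiredoxins reduce the peroxide, the latter families at the expense of glutathione and thioredoxin that NADPH keeps reduced. The hepatocyte is rich in these enzymes, with catalase in its peroxisomes, Sod2 and Prdx3 in its mitochondria and Sod1 and Gpx1 mainly in its cytosol, while Sod3 and Gpx3 are secreted.

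The arrays fell on 3 slides. All TBI rats shared 1 slide, so TBI and slide cannot be told apart, whereas MASM + TBI rat 3 lay on the slide of the 3 control rats. A plot in the study prints the file names of the control arrays under TBI and those of the TBI arrays under control, and the groups used here follow the labels. Cdkn1a, the cell cycle inhibitor induced by p53 after DNA damage, had normalized log2 signals of 8.01, 8.25 and 8.84 in control rats, 13.47, 13.67 and 14.06 in TBI rats and 13.06, 13.23, 12.80 and 13.58 in MASM + TBI rats. Of 10 measured p53 target genes, 8 rose in TBI rats (2.44% of all probes did) and 8 rose in MASM + TBI rats (1.26%) against control, and 0 passed between the irradiated groups in limma (1 at an unadjusted p under 0.05). The p53 targets thus separated the irradiated from the control arrays by their labels, and they did not separate the irradiated groups from each other. All 8 hepatocyte markers were well above background on all 10 arrays, and their summed log2 signal lay between 20.0 and 20.2 over all rats. That sum rests on its brightest members, near the top of the quantile-normalized range, so it had little room to vary between arrays. It says little about the share of hepatocytes. Log2 differences of single markers in TBI rats ran from -0.52 for Ttr to 0.51 for Cps1, with 4 above 0 and 4 below.

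Promoter sequences are shown for Cat, the enzyme gene that passed the test, for Prdx1, which had the largest difference between the irradiated groups among the 10 genes, and for Gclm, a gene of glutathione synthesis described further on. They are the 250 bases before the gene start in RefSeq on rat build GRCr8, written 5′ to 3′ in the direction of the gene. Capitals mark the CCAAT box (CCAAT on either strand) in Cat and the core of the antioxidant response element (TGACNNNGC on either strand), which the stress factor NRF2 binds, in Prdx1 and Gclm.
Cat (chr3:110329527-110329776, minus strand): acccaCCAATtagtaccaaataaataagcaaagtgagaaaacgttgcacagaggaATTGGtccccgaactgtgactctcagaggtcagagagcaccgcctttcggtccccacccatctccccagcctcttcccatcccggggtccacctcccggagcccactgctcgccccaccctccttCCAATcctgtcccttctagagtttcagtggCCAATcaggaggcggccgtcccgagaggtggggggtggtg
Prdx1 (chr5:135383656-135383905, plus strand): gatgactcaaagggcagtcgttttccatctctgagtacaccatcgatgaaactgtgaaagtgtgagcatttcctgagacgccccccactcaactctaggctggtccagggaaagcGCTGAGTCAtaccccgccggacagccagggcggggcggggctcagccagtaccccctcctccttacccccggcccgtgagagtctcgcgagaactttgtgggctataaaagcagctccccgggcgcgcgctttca
Gclm (chr2:213031885-213032134, plus strand): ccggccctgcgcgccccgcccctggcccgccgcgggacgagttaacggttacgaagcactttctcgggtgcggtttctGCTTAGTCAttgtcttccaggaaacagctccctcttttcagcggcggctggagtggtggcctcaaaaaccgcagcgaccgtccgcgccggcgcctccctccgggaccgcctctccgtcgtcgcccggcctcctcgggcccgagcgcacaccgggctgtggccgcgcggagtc
Cat held 4 CCAAT matches, at 245, 195, 70 and 40 bases before the start, and the motif was found in 34% of 33469 rat promoters of this length. The response element core lay 135 bases before the start of Prdx1 and 172 bases before that of Gclm, on the reverse strand in both, and 10.1% of all promoters held it. Of the 8 enzyme genes with a sequence in the table, Sod2 and Prdx1 held this core. Sod3 and Prdx6 had no entry. A match is a string of letters and no evidence of binding.

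**Figure D1:**
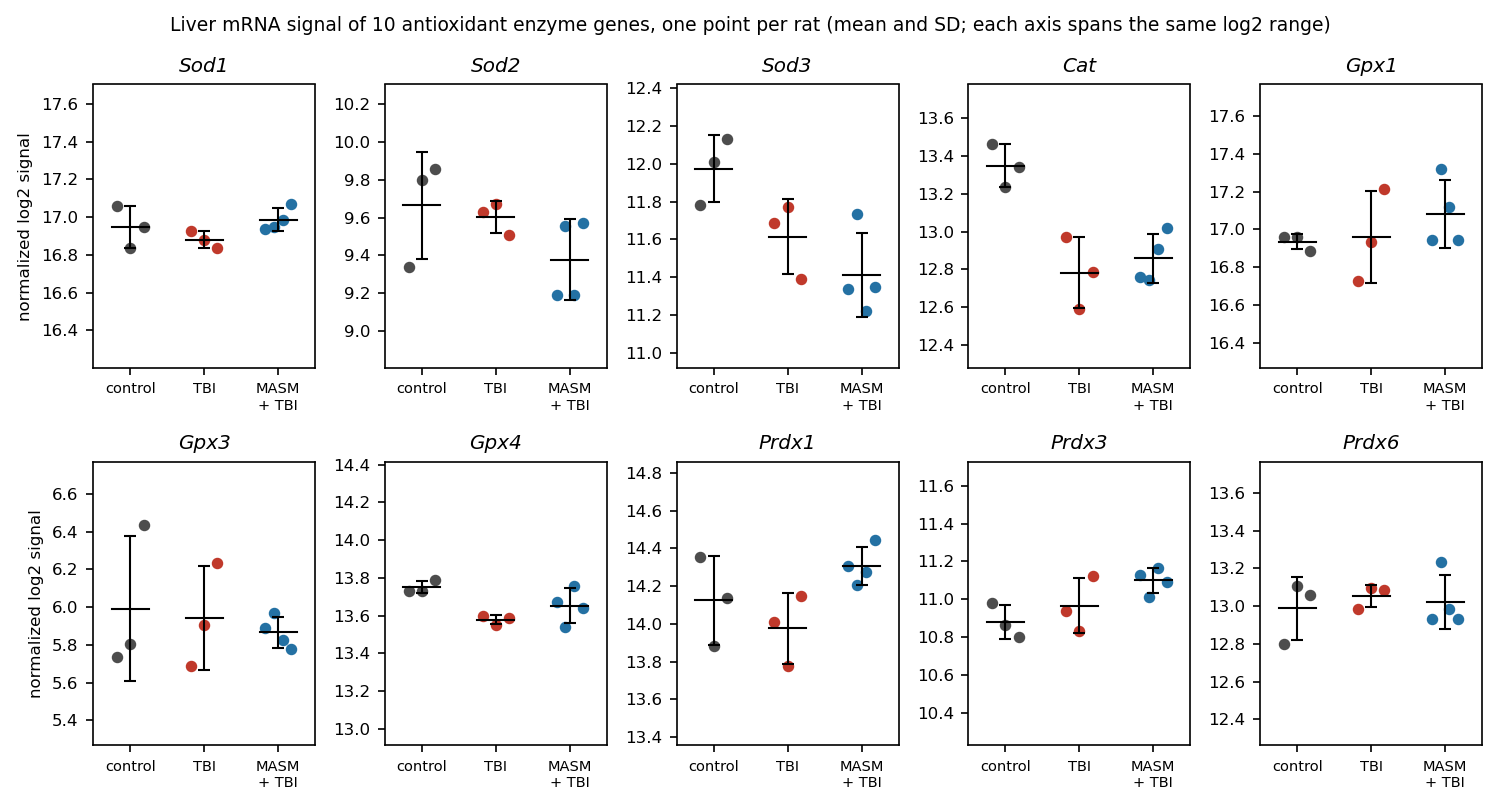
Normalized log2 signal of each of the 10 enzyme genes (y axis) in control, TBI and MASM + TBI rats (x axis); points are rats, and lines give the mean and SD. In the Cat and Sod3 panels all 7 irradiated rats lie below the 3 control rats, while all 3 groups overlap in the panels of Sod2, Gpx1, Gpx3 and Prdx6.

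Catalase was the enzyme gene with the clearest difference. Cat, whose product splits hydrogen peroxide into water and oxygen, had normalized log2 signals of 13.47, 13.24 and 13.34 in control rats and of 12.97, 12.59 and 12.79 in TBI rats. In MASM + TBI rats the signals were 12.76, 12.75, 12.91 and 13.02. All 7 irradiated rats lay below all 3 control rats, and the irradiated groups overlapped. Cat fell by 0.57 ± 0.12 (SE) on the log2 scale in TBI rats, a 1.48-fold lower signal (adjusted p = 0.0369 over 40945 probes). In MASM + TBI rats the difference from control was -0.49 ± 0.12 (SE, 1.41-fold, adjusted p = 0.0642), which did not pass. From TBI to MASM + TBI the difference was 0.08, with a 95% interval from -0.19 to 0.34 (adjusted p = 0.788), so differences of up to 1.26-fold in favour of MASM lay within the interval. A comparison of the mean of both irradiated groups with control, added after these values were seen, gave -0.53 ± 0.10 (SE, 1.44-fold, adjusted p = 0.0282).

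The call of Cat between TBI and control did not hold without most single rats. It was lost without control rat 1, 2 or 3, TBI rat 2 or 3, or MASM + TBI rat 1 or 2, with adjusted p between 0.0521 and 0.105, while the log2 difference stayed between -0.66 and -0.47. The call for both irradiated groups was lost without control rat 1, 2 or 3 or MASM + TBI rat 1 or 2 (adjusted p from 0.0503 to 0.106). The call between TBI and control was also lost with only these groups in the fit (adjusted p = 0.0965). By the methods' t-test Cat had an unadjusted p of 0.0177 and an adjusted p of 0.263 there, but after adjustment that test called 10 of 40945 probes, or 0.0244%, so its loss says little about Cat. On the slide that held both groups, MASM + TBI rat 3 lay 0.44 below the mean of the control rats on the log2 scale, and the MASM + TBI rats on another slide lay 0.51 below it.

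Red blood cells also carry much catalase, so markers of the erythroid lineage are given beside it. The summed log2 signal of 6 measured erythroid markers ran from 11.03 to 12.32 in control rats, from 10.47 to 11.47 in TBI rats and from 10.34 to 10.92 in MASM + TBI rats. The TBI rats overlapped the control rats and the MASM + TBI rats lay below them, while the members did not move one way. Hbb, a haemoglobin chain, had a log2 difference of -1.30 (adjusted p = 0.121) in TBI rats, and Slc4a1, the anion exchanger of the red cell membrane, of 1.53 (adjusted p = 0.117). Epb42, another protein of the red cell membrane, had a difference of 1.42 (adjusted p = 0.117) and was well above background on 8 of 10 arrays. Ahsp, the chaperone of alpha haemoglobin, at -1.06 (adjusted p = 0.0783), and Alas2, the first enzyme of erythroid haem synthesis, at -1.14 (adjusted p = 0.238), had differences below 0, as 4 of the 6 did. Of the 6, 0 passed in TBI rats, and 4 had an unadjusted p under 0.05 (23.5% of all probes did). Against control, 1 of the 6 passed in MASM + TBI rats (2.99% of all probes), as Ahsp fell by 1.39 (adjusted p = 0.0385). At an unadjusted p under 0.05, 1 of the 6 was higher and 3 were lower there (17% of all probes in either direction). Rhag was not well above background on any array. The part of these cells in the Cat result was not tested.

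By the rule of the named genes, the 5 genes whose signals over the 10 rats were most like those of Cat, out of 8438 compared, were Add1, Pgm2l1, Glyctk, Pc and Emc9. The mean absolute difference of their control-centred log2 signals from Cat ran from 0.084 for Add1 to 0.095 for Emc9. Glyctk is a glycerate kinase, and Pc is pyruvate carboxylase, an enzyme of gluconeogenesis.

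Among the superoxide dismutases, Sod3 was the one whose irradiated rats all lay below the control rats, and it did not pass the test. Sod3, the secreted form bound to the cell surface and matrix, had log2 signals of 11.78, 12.01 and 12.13 in control rats and of 11.68, 11.77 and 11.39 in TBI rats. In MASM + TBI rats they were 11.34, 11.74, 11.22 and 11.35. All 7 irradiated rats lay below the control rats, TBI rat 2 by less than 0.01 on the log2 scale. The difference from control was -0.36 ± 0.16 (SE, adjusted p = 0.23) in TBI rats and -0.56 ± 0.15 (SE, unadjusted p = 0.00568, adjusted p = 0.0975) in MASM + TBI rats. MASM + TBI rat 3 lay 0.75 below the mean of the control rats of its slide, and the MASM + TBI rats on another slide lay 0.50 below it. The 7 measured markers of vascular and stellate cells, among which are known sources of Sod3, had a summed log2 signal of 11.33 to 11.73 in control rats, 11.57 to 12.17 in TBI rats and 11.37 to 11.81 in MASM + TBI rats, so the irradiated rats did not lie below the control rats there. Within that list 0 of 7 passed in either comparison with control (5.63% and 2.99% of all probes did), and 0 and 2 had an unadjusted p under 0.05 (23.5% and 17%). Estimates above 0 in MASM + TBI rats were found for 4 of the 7, up to 0.51 for Dcn, decorin (adjusted p = 0.634), with a list median of 0.12. Tagln, a smooth muscle protein, had a difference of -0.81 (adjusted p = 0.0846) and Des, desmin, of -0.43 (adjusted p = 0.264) in MASM + TBI rats, and Lum was not well above background on any array. The part of these cells in the Sod3 values was not tested.

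Sod1 and Sod2 overlapped between control and TBI rats. Sod1, the cytosolic copper and zinc enzyme, was among the steadiest genes, with signals between 16.83 and 17.07 in all 10 rats and a difference of -0.07 (95% interval -0.25 to 0.12) in TBI rats. All 4 MASM + TBI rats lay above the 3 TBI rats for this probe, by 0.10 on average (adjusted p = 0.532), whereas the second probe of Sod1 overlapped and had a difference of -0.05. Sod2, the manganese enzyme of mitochondria, ran from 9.34 to 9.86 in control rats, from 9.51 to 9.67 in TBI rats and from 9.19 to 9.57 in MASM + TBI rats. Its difference from control was -0.06 in TBI rats and -0.29 in MASM + TBI rats (95% interval -0.65 to 0.07, adjusted p = 0.419).

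**Figure D2:**
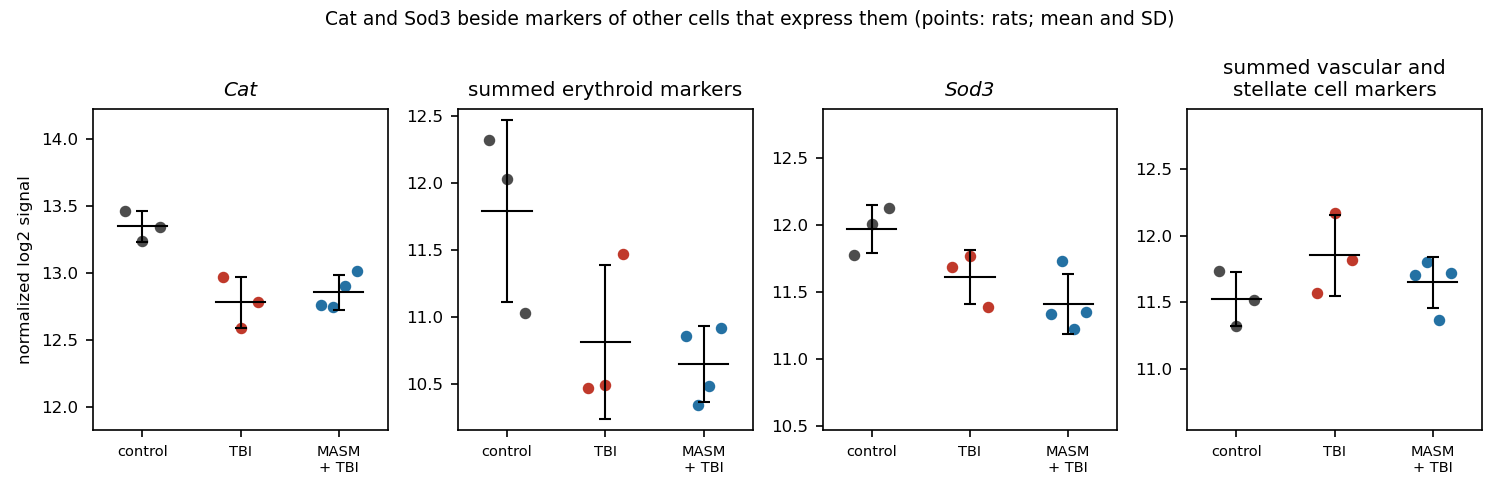
Normalized log2 signals (y axis) of Cat and Sod3 and the log2 of the summed signals of 6 erythroid and 7 vascular and stellate cell markers in each rat, by group (x axis); lines give the mean and SD. Summed erythroid markers reach 12.32 in control rats and at most 11.47 in irradiated rats, with overlap, while the vascular and stellate markers overlap in all groups.

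The glutathione peroxidases did not pass in any comparison. Gpx4, the selenoenzyme that reduces lipid hydroperoxides in membranes and guards against ferroptosis, was the steadiest of the 10 genes, with a within-group SD of 0.063. Its log2 signals were 13.73, 13.73 and 13.79 in control rats and 13.60, 13.55 and 13.59 in TBI rats, and the groups did not overlap. The difference of -0.17 (95% interval -0.34 to -0.001) had an unadjusted p of 0.049 and an adjusted p of 0.211. MASM + TBI rats, at 13.67, 13.54, 13.76 and 13.64, overlapped both groups. The difference of MASM + TBI rats from control was -0.10 in this scaling and 0.05 with arrays scaled to their 75th percentile.

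Gpx1, the main cytosolic glutathione peroxidase, ran from 16.73 to 17.32 over all rats, with a difference of 0.02 (95% interval -0.31 to 0.35) in TBI rats and 0.14 (-0.16 to 0.45) in MASM + TBI rats. Its second probe gave -0.02 and 0.11. Gpx3, the plasma form made mainly by the kidney, had a low signal between 5.69 and 6.43 and the largest spread of the 10 genes, with a within-group SD of 0.259. Its differences from control were -0.05 in TBI rats and -0.12 in MASM + TBI rats, and a change of up to 1.42-fold lay within the interval of the first.

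The peroxiredoxins, which reduce peroxides through a reactive cysteine, had no member past the test either, and the MASM + TBI rats had the highest means of Prdx1 and Prdx3. Prdx1, the abundant cytosolic form, had log2 signals of 14.35, 13.88 and 14.14 in control rats, 14.01, 13.78 and 14.15 in TBI rats, and 14.31, 14.21, 14.27 and 14.44 in MASM + TBI rats. The MASM + TBI rats lay above all TBI rats and overlapped the control rats. Their difference from TBI was 0.33 (95% interval 0.02 to 0.63, unadjusted p = 0.037, adjusted p = 0.257). Prdx3, the mitochondrial form, had signals of 10.98, 10.86 and 10.80 in control rats and 11.13, 11.01, 11.16 and 11.09 in MASM + TBI rats, which did not overlap. That difference was 0.22 (95% interval 0.01 to 0.42, unadjusted p = 0.0391, adjusted p = 0.261), and TBI rats, at 10.94, 10.83 and 11.12, overlapped both groups. Prdx6, the form that uses glutathione and also repairs phospholipids, had differences from control of 0.07 in TBI rats (95% interval -0.20 to 0.33) and 0.03 in MASM + TBI rats (-0.22 to 0.28).

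**Figure D3:**
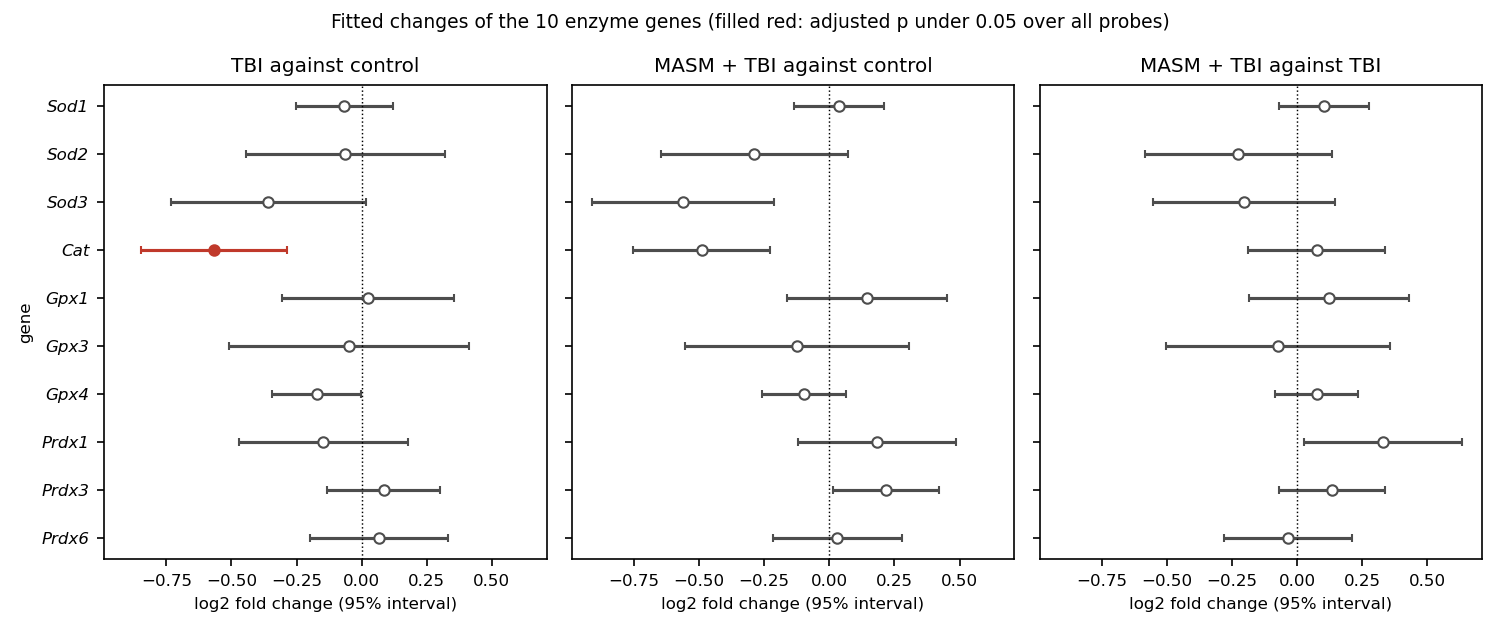
Log2 fold changes of the 10 enzyme genes (x axis) with 95% intervals in the 3 comparisons of the design; filled red marks an adjusted p under 0.05 over all probes. Cat between TBI and control, at -0.57, is the only filled point, and the other 9 genes of that panel lie between -0.36 and 0.08.

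All 10 enzyme genes were well above background on all arrays, so each could be counted. In TBI rats 1 of 10 passed at an adjusted p under 0.05, against 5.63% of all 40945 probes and 6.77% of the 21341 probes detected well above background by every array. Unadjusted, 2 of 10 had a p under 0.05 (23.5%). In MASM + TBI rats against control 0 of 10 passed (2.99% of all probes), with 3 at an unadjusted p under 0.05 (17%). For MASM + TBI against TBI 0 passed (1.63%), with 1 at an unadjusted p under 0.05 (17%). In the added comparison of both irradiated groups with control 1 passed (4.82%), and 2 had an unadjusted p under 0.05 (20.7%). At an unadjusted limma p under 0.05 and a change of at least 1.5-fold, 0 of 10 genes were counted in TBI rats (12.6%), 0 in MASM + TBI rats (8.06%), 0 between the irradiated groups (7.98%) and 0 in the added comparison (9.31%). With 10 genes, 1 call is near the share of all probes.

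The methods' t-test, at an unadjusted p under 0.05, counted 2 of 10 genes between TBI and control (15.1% of all probes), 3 between MASM + TBI and control (14.4%) and 0 between the irradiated groups (11.7%). With a fold of at least 1.5 added it counted 0 of 10 in each, against 7.08%, 5.75% and 4.03% of all probes. After Benjamini-Hochberg adjustment it also counted 0 of 10 in each. The adjusted test called 10, 40 and 4 of the 40945 probes in these comparisons, so that 0 of 10 genes was near what all probes gave.

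The sizes were small. The median absolute log2 difference of the 10 genes in TBI rats was 0.075, against 0.217 for those 21341 probes. It was 0.164 against 0.191 in MASM + TBI rats and 0.113 against 0.159 between the irradiated groups. The median within-group SD of the 10 genes was also lower, at 0.16 against 0.198, and a smaller spread by itself makes for smaller differences. In TBI rats 7 of 10 genes had estimates below 0, with a median difference of -0.06, while the median over all probes was -0.03. Groups that did not overlap were found for Cat, Sod3 and Gpx4 between TBI and control, which is 3 of 10 genes against 30.3% of all probes. They were found for Cat, Sod3 and Prdx3 between MASM + TBI and control (18.3%), and for Sod1 and Prdx1 between MASM + TBI and TBI (18.5%). For both irradiated groups against control they were Cat and Sod3, 2 of 10 genes against 8.89% of all probes, and this pattern is what led to the added comparison. Among the 21341 probes well above background on every array, as all 10 genes were, the shares without overlap were 27.8%, 27.5% and 15.1% in the 3 comparisons of the design and 13.4% in the added one.

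Partners that supply or serve these enzymes passed in both irradiated groups. Of 32 listed genes of glutathione and thioredoxin supply, of peroxide sensing and of copper delivery, 27 had a probe. In TBI rats 3 rose (2.44% of all probes did) and 3 fell (3.19%), and in MASM + TBI rats 3 rose (1.26%) and 1 fell (1.73%) against control. The median difference of the list was 0.01 in TBI rats and -0.03 in MASM + TBI rats, near the median of all probes at -0.03 and 0.00.

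Srxn1, Sesn2 and Glrx3 rose in both irradiated groups. Srxn1, sulfiredoxin, which restores peroxiredoxins after overoxidation, had log2 signals of 6.08, 6.10 and 6.14 in control rats, 6.72, 6.37 and 6.69 in TBI rats and 6.64, 6.77, 6.55 and 6.62 in MASM + TBI rats. It rose 1.40-fold (adjusted p = 0.0374) and 1.45-fold (adjusted p = 0.0296), or by 0.49 and 0.54 on the log2 scale. With normexp background correction these log2 differences were 0.15 and 0.20 and did not pass (adjusted p = 0.176 and 0.0953). Sesn2, a stress-induced sestrin and p53 target, had signals of 6.58, 6.54 and 6.74 in control rats, 7.38, 7.91 and 7.52 in TBI rats and 7.30, 7.59, 7.49 and 7.52 in MASM + TBI rats. It rose 1.97-fold in TBI rats (adjusted p = 0.00933) and 1.81-fold in MASM + TBI rats (adjusted p = 0.0173), or by 0.98 and 0.85 on the log2 scale. With normexp the log2 differences were 0.52 and 0.43, and both passed (adjusted p = 0.00631 and 0.0115).

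Glrx3, a glutaredoxin that carries iron-sulfur clusters, had signals of 12.09, 11.88 and 11.93 in control rats, 12.59, 12.64 and 12.77 in TBI rats and 12.58, 12.49, 12.67 and 12.75 in MASM + TBI rats. It rose 1.62-fold (adjusted p = 0.00813) and 1.57-fold (adjusted p = 0.0106). For all 3 genes every irradiated rat lay above every control rat, and the irradiated groups overlapped.

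Ccs, the chaperone that loads copper into Sod1, fell in both irradiated groups, while Sod1 overlapped between them and control. Its log2 signals were 13.24, 13.08 and 13.05 in control rats, 12.78, 12.72 and 12.77 in TBI rats and 12.71, 12.67, 12.70 and 12.84 in MASM + TBI rats, without overlap with control. The fall was 1.28-fold in TBI rats (adjusted p = 0.0397) and 1.31-fold in MASM + TBI rats (adjusted p = 0.034). With arrays scaled to their 75th percentile the differences were -0.30 (adjusted p = 0.1) and -0.25 (adjusted p = 0.308).

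Gclm, the regulatory subunit of the rate-limiting enzyme of glutathione synthesis, differed between the irradiated groups. Its log2 signals were 4.76, 4.52 and 4.39 in control rats, 2.35, 1.71 and 2.91 in TBI rats and 4.98, 4.83, 4.42 and 5.24 in MASM + TBI rats. It fell by 2.23 in TBI rats (adjusted p = 0.00703) and was 2.54 higher in MASM + TBI than in TBI rats (adjusted p = 0.00682), while its difference between MASM + TBI and control was 0.31 (adjusted p = 0.682). The probe was dim and well above background on 1 of 3 TBI arrays, against 3 of 3 control and 4 of 4 MASM + TBI arrays. With normexp background correction the differences were -0.28 (adjusted p = 0.0339) and 0.34 (adjusted p = 0.0329), so the size rests on how the background was removed. The catalytic subunit, Gclc, named as its partner although it did not pass, had a difference of 0.31 (adjusted p = 0.529) in TBI rats and 0.93 (adjusted p = 0.0998) in MASM + TBI rats. Since all TBI rats shared a slide, the part of the slide in the Gclm values cannot be told apart from that of TBI.

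Txnrd3, a thioredoxin reductase best known from testis, fell by 1.10 in TBI rats (adjusted p = 0.0378), with signals of 5.48, 5.38 and 5.72 in control rats and 4.10, 4.30 and 4.89 in TBI rats. With normexp the difference was -0.34 (adjusted p = 0.0204). The MASM + TBI rats, at 5.05, 4.55, 5.26 and 4.78, overlapped the TBI rats, with a mean difference of -0.62 from control (adjusted p = 0.204) and of 0.48 from TBI (adjusted p = 0.331). Txnrd1 and Txnrd2, the cytosolic and mitochondrial forms, did not pass and had differences of 0.26 (adjusted p = 0.617) and -0.17 (adjusted p = 0.376) in TBI rats. Gpx2, the glutathione peroxidase of the gut epithelium, chosen after its values were seen, had the highest estimate above 0 of the list in TBI rats at 2.01 and did not pass (adjusted p = 0.107). It was well above background on 2 of 3 control arrays.

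**Figure D4:**
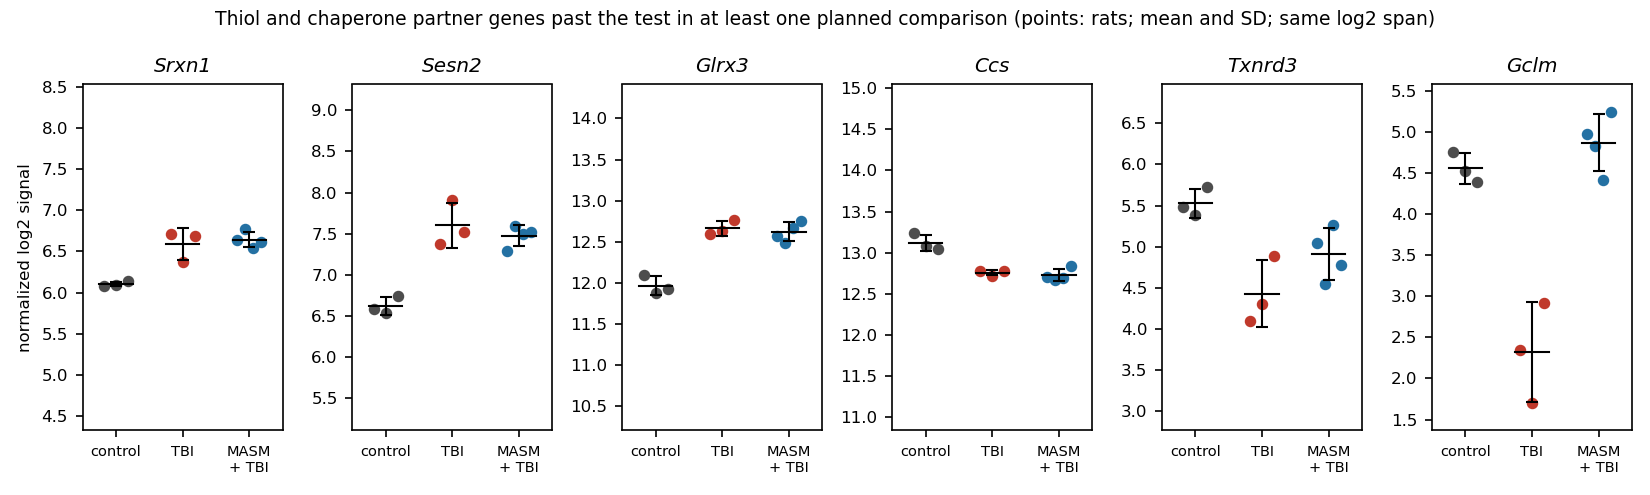
Normalized log2 signal (y axis, the same span in each panel) of the 6 partner genes that passed in a comparison of the design, in control, TBI and MASM + TBI rats (x axis); points are rats, lines the mean and SD. Srxn1, Sesn2 and Glrx3 are higher and Ccs is lower in all 7 irradiated rats, while Gclm is low in the 3 TBI rats alone.

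Leaving out single rats separated these genes. Between TBI and control, Gclm, Glrx3 and Sesn2 passed without any 1 of the 10 rats. Srxn1 did not pass without control rat 1, 2 or 3, TBI rat 1 or 3 or MASM + TBI rat 1 or 4 (adjusted p from 0.0567 to 0.0981). Ccs did not pass without any 1 of the control or TBI rats or MASM + TBI rat 1 or 2 (0.0511 to 0.105), and Txnrd3 not without any 1 of the control rats, TBI rat 1 or 2 or MASM + TBI rat 1 or 4 (0.0553 to 0.122). Between MASM + TBI and control, Glrx3 did not pass without control rat 2 or 3 (0.0509 and 0.0508), and Sesn2 not without control rat 2 (0.0699) or MASM + TBI rat 4 (0.0516). In that comparison Srxn1 and Ccs did not pass without any 1 of the control rats or MASM + TBI rat 1 or 2, Srxn1 also not without MASM + TBI rat 4, and Ccs not without MASM + TBI rat 3 (0.0663 to 0.102).

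Among 22 measured genes whose products make superoxide or peroxide, 0 passed in TBI rats (5.63% of all probes did). Unadjusted, 5 had a limma p under 0.05 (23.5%), and the methods' t-test counted 2 (15.1%). In MASM + TBI rats against control 1 of the 22 passed, against 2.99% of all probes, which with 22 genes is near that share. Maoa, monoamine oxidase A of the outer mitochondrial membrane, had signals of 10.03, 10.06 and 9.85 in control rats and 10.41, 10.33, 10.36 and 10.32 in MASM + TBI rats. It rose 1.30-fold (adjusted p = 0.0495) and did not pass without any 1 of the 10 rats (adjusted p from 0.0514 to 0.16) or with the 75th percentile (0.0743). TBI rats, at 10.29, 10.10 and 10.23, lay above the control rats, with a difference of 0.23 (adjusted p = 0.161).

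The subunits of the phagocyte NADPH oxidase, which makes the superoxide burst, were described after their values were seen. Cybb, Cyba, Ncf1, Ncf4 and Rac2 had lower signals in MASM + TBI than in TBI rats, with log2 differences from -1.23 for Ncf1 to -0.71 for Cyba, and 0 of the 5 passed in limma (adjusted p from 0.156 for Ncf1 to 0.27 for Cyba). All 5 had an unadjusted p under 0.05, as 17% of all probes did. From control, their differences ran from -0.17 for Cyba to 0.915 for Cybb in TBI rats. In MASM + TBI rats they ran from -0.88 for Cyba to -0.22 for Cybb. The smallest limma p of these was that of Cyba in MASM + TBI rats (unadjusted 0.0167, adjusted 0.17). TBI rats 2 and 3 stood apart from TBI rat 1 for these genes. Control rat 1 was likewise the lowest of its group for all 5 genes, as for Ncf4 with 9.39, 10.69 and 10.58 in control rats. The log2 signals of Cybb, the catalytic subunit, were 6.51, 8.27 and 8.30 in TBI rats against 6.86, 6.74, 6.29 and 6.34 in MASM + TBI rats. In TBI rat 1, Cybb and Cyba lay within the range of the MASM + TBI rats, and Ncf1, Ncf4 and Rac2 lay less than 0.1 above it. Leaving out TBI rat 1, the lowest of its group for all 5 genes, could only widen the differences, which then ran from -1.73 for Cybb to -0.98 for Cyba. Cybb (adjusted p = 0.0175) and Ncf1 (adjusted p = 0.0271) passed without it, which is no support for a change, since 0 of the 5 passed with all rats. Markers of Kupffer cells and macrophages, the liver's phagocytes, are given beside them. Their summed log2 signal ran from 15.54 to 16.05 in control rats, from 15.53, in TBI rat 1, to 16.43 in TBI rats and from 15.20 to 15.51 in MASM + TBI rats, and 0 of 7 passed between the irradiated groups. All 7 had estimates below 0 there, from -1.10 for Csf1r to -0.04 for Cd163, and 5 had an unadjusted p under 0.05 (17% of all probes did). Their part in these values was not tested.

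Of 5 measured genes that supply NADPH, 0 passed in any comparison, with 2 at an unadjusted p under 0.05 in each (23.5%, 17% and 17% of all probes). By the methods' t-test, unadjusted, 1, 2 and 0 of them were counted between TBI and control, MASM + TBI and control, and the irradiated groups, against 15.1%, 14.4% and 11.7% of all probes. Of those described here, chosen after their values were seen, Idh2, the mitochondrial isocitrate dehydrogenase, had differences from control of -0.32 (adjusted p = 0.191) in TBI rats and -0.49 (adjusted p = 0.0832) in MASM + TBI rats. Me1, malic enzyme, had a difference of -0.60 (adjusted p = 0.0624) in TBI rats.

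The other cell markers were counted once for the mixture of cells. Of 7 measured neutrophil and monocyte markers, 5 of sinusoidal endothelium and 8 of hepatocytes, 0 passed in the comparisons of the design (5.63%, 2.99% and 1.63% of all probes did). At an unadjusted p under 0.05, against 23.5%, 17% and 17% of all probes, 0, 1 and 1 of the neutrophil and monocyte markers, 2, 2 and 0 of the endothelial markers and 3, 2 and 0 of the hepatocyte markers were counted between TBI and control, MASM + TBI and control, and the irradiated groups. The summed log2 signal of the endothelial markers ran from 13.65 to 13.94 in control rats, 14.04 to 14.35 in TBI rats and 13.85 to 14.18 in MASM + TBI rats, so the TBI rats lay above the control rats. That of the neutrophil and monocyte markers ran from 12.28 to 12.57 in control rats, 12.24 to 12.32 in TBI rats and 11.81 to 12.24 in MASM + TBI rats, which lay below the control rats. A sum follows its brightest members, and the members of both lists went both ways. Of the 5 endothelial markers, 3 had estimates above 0 and 2 below in TBI rats, from -0.27 to 0.53. Of the 7 neutrophil and monocyte markers, 3 were above 0 and 4 below in MASM + TBI rats, with a median of -0.02. The part of these cells in the enzyme genes' values was not tested. Of 6 lymphocyte markers, Cd79b, a B cell receptor subunit, fell in TBI rats and in MASM + TBI rats (3.19% and 1.73% of all probes fell). Cd79b was well above background on 3 of 3 control arrays and on 0 of 7 irradiated arrays (adjusted p = 0.00484 and 0.00378). Cd3e, a T cell receptor subunit, also passed in both, but it was not well above background on any array and is not counted as a measured fall. The summed log2 signal of the list ran from 8.93 to 9.35 in control rats, 8.27 to 8.88 in TBI rats and 7.80 to 8.61 in MASM + TBI rats.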

How the data were processed

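Liver RNA of 10 rats was labelled with Cy3 and hybridised to 1-colour 4x44K rat arrays, 1 array per rat. The authors deposited the spot intensity from Feature Extraction 10.7.3.1, background-subtracted, detrended and not normalized between arrays, and the deposited series table held the same values. The array design rests on rn4, so no positions of probes are given. The labels give 6.5 Gy, and the study's text a slightly lower dose.

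Control spots (1639 per array) and outlier spots were removed, and 0 spots reached saturation. The log2 of each intensity was quantile normalized, as in the study, and spots of a probe were averaged. Of 41012 probes, 40945 had a value on every array. Probes were named by accession, 16968 with a symbol, and the brightest probe stood for a gene. On each array 56.2% to 70.1% of spots were well above background. The 3 TBI arrays, all on 1 slide, had the highest shares, at 64.1%, 66.8% and 70.1%. The other arrays lay between 56.2% and 60.2%. The part of this shift in the TBI differences, those of dim probes among them, was not tested. The number of arrays limits the precision.

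A mean per group was fitted to all 10 arrays in limma 3.58.1 (R 4.3.3, data.table, version 1.17.8), with Benjamini-Hochberg adjustment over all probes, and genes passed at an adjusted p under 0.05. Intervals are 95% intervals of that fit, and p-values are two-sided. The 3 comparisons share arrays. The enzyme genes and all lists (10 lists of partners, producers, NADPH supply and cell markers, and 12 p53 targets, added later to check the labels) were chosen with earlier results of these data known. The rule named all enzyme genes, partner, producer and NADPH genes that passed (at most 6 per list and comparison), marker genes beside an enzyme gene, and the 5 genes most like the enzyme gene with the smallest p. Gclc, Txnrd1, Txnrd2, Gpx2, Idh2, Me1, the NADPH oxidase subunits and the Kupffer cell and lymphocyte markers fall outside it and were named after their values were seen. Scaling, background correction, filtering, test, prior, slide, replicate number and single arrays were varied. Fits were tested on simulated data. Promoters came from RefSeq (GRCr8). Plots used matplotlib 3.10.9 in Python 3.11.15 with pandas 2.3.3 and numpy 2.4.6.

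Animals were taken as separate, as the labels number them. Same-numbered rats of different groups were checked for shared deviations: correlations ran from -0.125 to 0.169, so the numbers were not taken to pair the rats.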

Additional observations from a re-analysis of the deposited data

Results flagged for a closer look

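Gclm differed between the irradiated groups. The log2 difference of MASM + TBI from TBI rats was 2.54 (adjusted p = 0.00682 in limma), with all 4 MASM + TBI rats above all 3 TBI rats. Without rats given MASM alone, a changed response to irradiation cannot be told apart from an action of MASM itself. The TBI rats also shared no slide with the MASM + TBI rats, so slide cannot be told apart either. In the TBI group 1 of 3 arrays measured the probe well above background, and the difference was 0.34 after normexp background correction.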

How the results depend on the processing

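Quantile normalization was replaced by scaling to the 75th percentile, the background correction by normexp, and the fit, prior, filter and blocks were varied; the cause of each change was not tested. Of the enzyme genes, 1 passed between TBI and control. That count became 0 with only the compared groups in the fit, with the methods' t-test and with the replicate number as a block (Cat adjusted p = 0.0607), and ran from 0 to 1 when single rats were left out. Between MASM + TBI and control the count was 0 and became 1, Cat, with normexp (adjusted p = 0.0255), without dim probes (0.0457), with a trended robust prior (0.0428) and with slide as a random block (0.0227), and stayed 0 without any 1 rat. For MASM + TBI against TBI it was 0 under every alternative run. For both irradiated groups the count of 1 became 0 with the 75th percentile (Cat adjusted p = 0.107), the t-test (0.0652) and the replicate block (0.0512), became 2 with slide as a random block (Sod3 adjusted p = 0.0487), and ran from 0 to 1 without single rats.

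Of partner, producer and NADPH genes, 6 passed between TBI and control. This became 2 with only the compared groups in the fit, 0 with the t-test and 13 with slide as a random block, and ran from 3 to 6 without single rats. Between MASM + TBI and control 5 passed, 2 with the 75th percentile and 0 each with the t-test, the replicate block and slide as a fixed block (0 to 5 without single rats). Srxn1 did not pass with normexp in either comparison with control (adjusted p = 0.176 and 0.0953). For MASM + TBI against TBI 1 passed, 3 with the 75th percentile, 3 with slide as a random block, and 0 with the t-test and the replicate block (Gclm adjusted p = 0.087), with 1 to 5 without single rats; 5 without TBI rat 1 and 3 without TBI rat 3. For both irradiated groups 4 passed, 7 without dim probes, 11 with slide as a random block, 2 with the t-test and 2 with the replicate block (2 to 6 without single rats). The replicate block thus ended calls here, although the numbers were not taken to pair the rats.

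Signs that turned belonged to differences near 0 that had not passed. In TBI rats Gpx1 turned to -0.0168 with normexp and to -0.000156 with the mean of its probes. In MASM + TBI rats Gpx4 turned to 0.0502 with the 75th percentile and 0.00741 with slide as a fixed block, Prdx6 to -0.00221 with that block, and Sod1 to -0.0425 with normexp. Between the irradiated groups Prdx6 turned to 0.0577 with the 75th percentile and Gpx3 to 0.00643 with normexp. For both irradiated groups Sod1 turned to 0.0719 with the 75th percentile and 0.000368 with the mean of its probes, and Prdx1 to -0.00474 with the replicate block. Without single rats the log2 differences between TBI and control ran from -0.224 to 0.0344 for Sod2, -0.104 to 0.139 for Gpx1, -0.196 to 0.172 for Gpx3 and -0.0297 to 0.126 for Prdx6. Between MASM + TBI and control they ran from -0.0185 to 0.0929 for Sod1, -0.252 to 0.097 for Gpx3 and -0.0643 to 0.0914 for Prdx6, and between the irradiated groups from -0.0206 to 0.169 for Cat and -0.203 to 0.0719 for Gpx3. For both irradiated groups they ran from -0.0706 to 0.0407 for Sod1, -0.215 to 0.134 for Gpx3, -0.104 to 0.133 for Prdx1 and -0.047 to 0.109 for Prdx6.

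Slide as a fixed block could be fitted only between MASM + TBI and control, which share a slide. Between TBI and control the number of probes that passed was 2305, and it was 7458 with the 75th percentile, 972 with only the compared groups, 1053 with the replicate block, 10 with the methods' t-test and 6742 with slide as a random block, whose correlation within slides was -0.133. Under that block the SE of Cat between MASM + TBI and control was 0.0986, against 0.115 in the main fit. The calls it added are thus no sign that slide was accounted for. With the adjusted t-test 40 probes passed between MASM + TBI and control and 4 between the irradiated groups, so the counts of 0 under it were near what all probes gave.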
